A study of Mus musculus with 6 samples.

Results

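The 9 genes described here mark B cells and antibody-secreting plasma cells and were measured in the livers of mice with and without hepatocyte Shmt2, the gene of a mitochondrial enzyme of serine and one-carbon metabolism. They were chosen by symbol, and all 9 symbols were found among the 49671 genes of the count table by their Ensembl identifiers. The B cell genes are Cd79a, Cd79b, Ms4a1 and Pax5 (4 genes), and the immunoglobulin and plasma cell genes are Ighm, Igha, Igkc, Jchain and Mzb1 (5 genes). Liver RNA was sequenced from 3 SHMT2fl/fl and 3 SHMT2HKO mice, which the labels call WT and KO; WT was read as SHMT2fl/fl because the study's control mice carried the floxed allele without Cre. All 6 were C57BL/6J males kept on the AMLN diet, a food high in fat with added fructose and cholesterol, for 18 weeks from 4 weeks of age, so that they were 22 weeks old at the end, and fasted before the livers were taken. In SHMT2HKO mice both floxed Shmt2 alleles are combined with Cre under the albumin promoter. That promoter directs the deletion to hepatocytes, and B cells and plasma cells were not its target. Each library came from 1 liver, and the labels give nothing on litter or cage.

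B cells display an antibody on their surface, and Cd79a and Cd79b form the dimer that passes the signal of that receptor into the cell. On activation some B cells become plasma cells, which secrete large amounts of antibody. In the gut and liver much of this antibody is immunoglobulin A (IgA), which leaves the cell as a polymer held together by the J chain and is carried across epithelium, into bile for example, by the polymeric immunoglobulin receptor Pigr.

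The heavy chain class is set by the constant gene that is joined to the variable segment: Ighm gives IgM and Igha gives IgA. Both genes can end in a membrane form, used by B cells, or in a secreted form with a short tail of its own, to which the J chain binds. The tails are shown because Ighm and Igha, which share this J-chain-binding end, gave different values in the same livers. They are read 5′ to 3′ from the GENCODE M21 transcripts of GRCm38, on the minus strand, at chr12:113258771-113258829 for Igha and chr12:113420870-113420928 for Ighm. Capitals mark the last 2 codons, which encode cysteine and tyrosine and stand before the stop codon.
Igha secreted tail: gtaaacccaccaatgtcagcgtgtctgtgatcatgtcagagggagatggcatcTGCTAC
Ighm secreted tail: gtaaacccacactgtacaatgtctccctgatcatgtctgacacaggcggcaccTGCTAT
The same base stood at 40 of the 59 positions (67.8%) when both tails were set side by side without gaps. The count table has 1 row per gene, so the membrane and secreted forms of Ighm and of Igha were counted together.

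Between 23090837 and 34089722 counts were assigned to genes per liver. The lowest level that could be told from 0, taken as 3 counts, lay between 0.0734 and 0.152 CPM, the count as a share of a library size scaled by TMM (trimmed mean of M-values). TMM factors were 1.13 to 1.21 in SHMT2fl/fl and 0.802 to 0.984 in SHMT2HKO livers, so levels between the genotypes depend on the scaling. The targeted gene followed the labels: Shmt2 gave 94.6, 109 and 93.9 CPM in SHMT2fl/fl and 24.9, 28.3 and 19.3 CPM in SHMT2HKO livers. Its log2 fold change was −2.04 (SE 0.161, adjusted p = 0.000639). The tissue label was met by Alb, the hepatocyte gene of serum albumin, with 916598 to 1659917 counts per liver. A low count filter left 16089 genes, among them all 9 B cell and plasma cell genes, and the quasi-likelihood test of edgeR, with p-values adjusted by Benjamini and Hochberg, called 2651 of them lower (16.5%) and 2012 higher (12.5%) in SHMT2HKO at an adjusted p below 0.05. Of the same genes, 4029 (25.0%) had every SHMT2HKO liver below every SHMT2fl/fl liver. Of all calls 56.9% were lower, against 67.5% with upper-quartile factors, 90.1% on plain library sizes and 96.3% on ERCC spike-in scaling.

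Against this background, Igha, Igkc and Jchain fell in SHMT2HKO livers, which is 3 of the 9 genes, and 0 rose. The fold differences were 8.74 for Igha, 3.6 for Jchain and 2.98 for Igkc. The 4 B cell genes had lower means by 1.41-fold to 2.0-fold and 0 of them passed the test by edgeR, DESeq2 or limma-voom, while the Ighm means of both genotypes lay within the spread between livers. At an unadjusted p below 0.05 were Cd79b by all of these tools (0.0324 by edgeR) and Cd79a by limma-voom (0.0229). The study's looser cutoff was an unadjusted p below 0.05 with an adjusted p below 0.25. Applied to the edgeR values it called 4 of the 9 genes, Cd79b being added. By limma-voom, the study's own method, Cd79a (adjusted p = 0.0677) and Cd79b (adjusted p = 0.0511) both met it. Over all 16089 genes, 6654 had an unadjusted p below 0.05 by edgeR, in either direction. Without overlap between the genotypes were 6 genes: Cd79a, Cd79b, Ms4a1, Igha, Igkc and Jchain. Of these, Ms4a1 passed the low count filter through the SHMT2fl/fl livers, so its separation is no support for a direction. In bulk liver RNA, fewer cells of a type and less RNA per cell cannot be told apart.

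**Figure D1:**
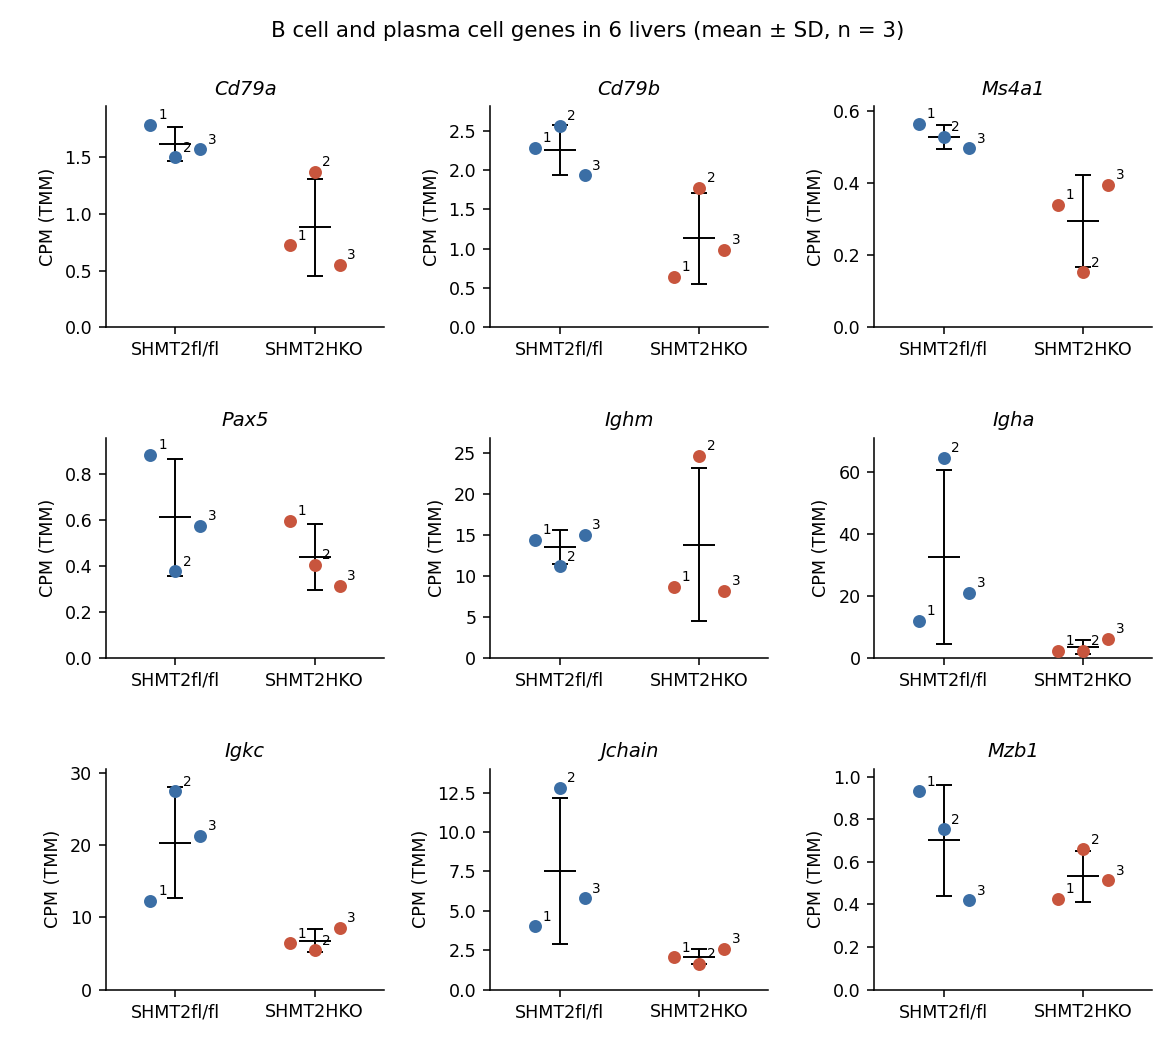
Level of each of the 9 genes in CPM (y axis, each panel with its own scale starting at 0) in 3 SHMT2fl/fl and 3 SHMT2HKO livers; points are livers and bars are means with SD. The genotypes do not overlap for Cd79a, Cd79b, Ms4a1, Igha, Igkc and Jchain, and the second SHMT2HKO liver stands high for Ighm, Cd79a and Cd79b. Ms4a1 passed the low count filter through the SHMT2fl/fl livers.

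Among the B cell genes, Cd79a (ENSMUSG00000003379, chr7:24897381-24902197, plus strand, GRCm38) gave 1.79, 1.5 and 1.57 CPM in SHMT2fl/fl and 0.722, 1.37 and 0.551 CPM in SHMT2HKO livers. The second SHMT2HKO liver was close to the SHMT2fl/fl range and the other two were far below it. The means were 1.62 ± 0.148 and 0.88 ± 0.431 CPM (SD, n = 3 each), with a log2 fold change of −0.89 (SE 0.392, adjusted p = 0.123). Its partner Cd79b (ENSMUSG00000040592, chr11:106311341-106314762, minus strand) gave 2.28, 2.56 and 1.93 CPM against 0.637, 1.77 and 0.984 CPM. The order of the 3 SHMT2HKO livers again had the second one on top, below the lowest SHMT2fl/fl liver. Cd79b had means of 2.25 ± 0.314 and 1.13 ± 0.582 CPM, the log2 fold change was −1.0 (SE 0.391), and the adjusted p was 0.0879. Both genes passed the test when the second SHMT2HKO liver was left out, Cd79a at −1.34 (adjusted p = 0.0427, over all alternatives 0.0264 to 0.279) and Cd79b at −1.46 (adjusted p = 0.0341, over all alternatives 0.025 to 0.22). They also passed on plain library sizes, at −1.35 (adjusted p = 0.0264) and −1.44 (adjusted p = 0.025), and on ERCC spike-in scaling, at −1.76 (adjusted p = 0.0399) and −1.75 (adjusted p = 0.0355).

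Ms4a1, the gene of the B cell surface protein CD20 (ENSMUSG00000024673, chr19:11249675-11266241, minus strand), rested on 14 to 23 counts in SHMT2fl/fl and 3 to 10 counts in SHMT2HKO livers. Its levels were 0.563, 0.527 and 0.496 CPM against 0.34, 0.152 and 0.394 CPM, without overlap. Ms4a1 passed the low count filter through the SHMT2fl/fl livers, so this separation is no support for a direction. The second SHMT2HKO liver was here the lowest, unlike for Cd79a and Cd79b. The log2 fold change was −0.81 (SE 0.451, adjusted p = 0.215). Pax5, the transcription factor that holds cells in the B lineage and is switched off in plasma cells (ENSMUSG00000014030, chr4:44524757-44710487, minus strand), gave 0.881, 0.376 and 0.574 CPM against 0.594, 0.405 and 0.315 CPM. The genotypes overlapped for Pax5, and its log2 fold change of −0.50 (SE 0.468, adjusted p = 0.466) was within the spread between livers. Neither gene passed the test under any of the 14 alternatives in which it was tested. Exons of Pax5 share 125 and 636 bases with genes on the opposite strand, Gm12462 and 5730488B01Rik, both at 0 counts in all 6 livers.

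Igha (ENSMUSG00000095079, chr12:113254830-113260236, minus strand, an immunoglobulin constant gene) gave 12, 64.4 and 21.1 CPM in SHMT2fl/fl livers and 2.33, 2.38 and 6.26 CPM in SHMT2HKO livers. The highest SHMT2HKO liver was below the lowest SHMT2fl/fl liver, and the second SHMT2fl/fl liver was far above the other two. The means were 32.5 ± 28.0 and 3.66 ± 2.25 CPM (SD, n = 3 each), the log2 fold change was −3.13 (SE 0.717), and the adjusted p was 0.0184. The size of this difference rests in part on the second SHMT2fl/fl liver, without which the log2 fold change was −2.17 (adjusted p = 0.0281). Igha lost its call without the first SHMT2HKO liver (−2.87, adjusted p = 0.0863), without the second (−2.90, adjusted p = 0.0574), and without the low count filter (−3.14, adjusted p = 0.123), and over all alternatives its adjusted p ran from 4.91e-07 to 0.123.

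Igkc, the constant gene of the kappa light chain that most mouse antibodies carry whatever their class (ENSMUSG00000076609, chr6:70726435-70726966, plus strand), gave 12.2, 27.4 and 21.3 CPM against 6.37, 5.42 and 8.5 CPM. The genotypes did not overlap. The means were 20.3 ± 7.67 and 6.76 ± 1.58 CPM and the log2 fold change was −1.58 (SE 0.306, adjusted p = 0.00788). Of the 9 genes, Igkc alone was called lower under all 15 alternatives, with an adjusted p from 1.43e-05 to 0.0342.

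Jchain, the joining chain of polymeric IgA and IgM (ENSMUSG00000067149, chr5:88519809-88527891, minus strand), gave 4.01, 12.8 and 5.79 CPM against 2.04, 1.62 and 2.56 CPM. The second SHMT2fl/fl liver was again the highest, as for Igha and Igkc. The means were 7.55 ± 4.66 and 2.07 ± 0.47 CPM and the log2 fold change was −1.85 (SE 0.438, adjusted p = 0.0167). Without the second SHMT2fl/fl liver it was −1.24 (adjusted p = 0.0386), and without the second SHMT2HKO liver the call was lost (−1.70, adjusted p = 0.0633). Over all alternatives the adjusted p of Jchain was 0.000251 to 0.0633.

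Ighm (ENSMUSG00000076617, chr12:113418558-113422730, minus strand) did not follow this pattern. It gave 14.4, 11.2 and 15 CPM in SHMT2fl/fl livers and 8.74, 24.6 and 8.19 CPM in SHMT2HKO livers. The second SHMT2HKO liver had the highest level of all 6, while the other two lay below every SHMT2fl/fl liver. The means were 13.6 ± 2.03 and 13.8 ± 9.33 CPM, with a log2 fold change of 0.02 (SE 0.408, adjusted p = 0.976). Without the second SHMT2HKO liver the log2 fold change was −0.68 (adjusted p = 0.0487), and over all alternatives it ran from −0.86 to 0.27 with an adjusted p from 0.0487 to 0.996.

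Mzb1, a chaperone of the endoplasmic reticulum that helps antibodies assemble and is also made by plasmacytoid dendritic cells (ENSMUSG00000024353, chr18:35647267-35649367, minus strand), gave 0.93, 0.752 and 0.418 CPM against 0.424, 0.658 and 0.512 CPM. The genotypes overlapped. Its log2 fold change of −0.40 (SE 0.434, adjusted p = 0.527) rested on 10 to 38 counts per liver. Its exons share 695 bases with Spata24 on the same strand, and the sources used here do not state how reads over both genes were counted.

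**Figure D2:**
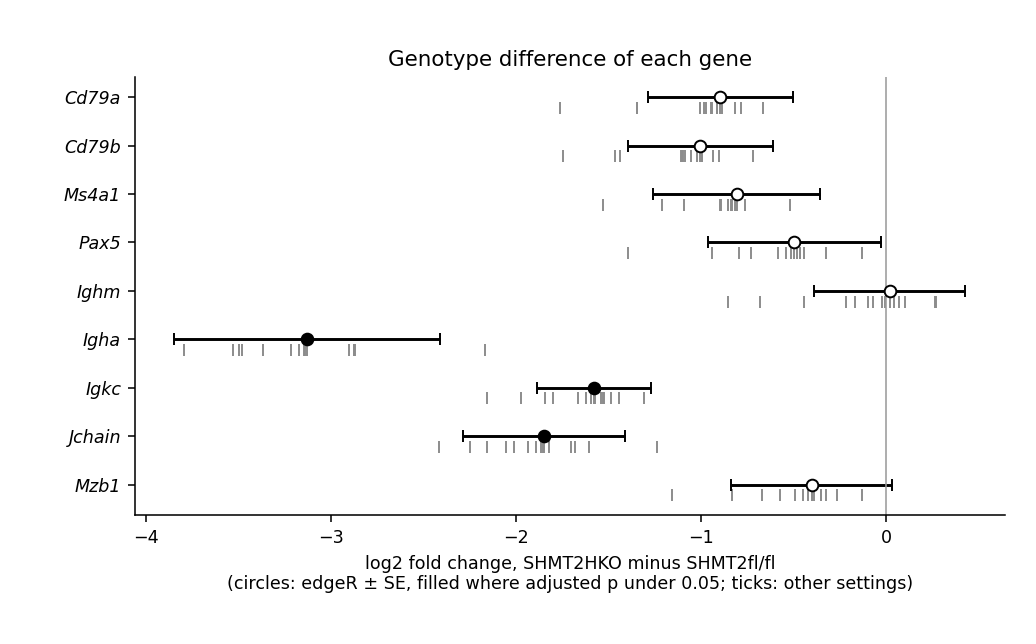
Log2 fold change, SHMT2HKO minus SHMT2fl/fl, of the 9 genes (x axis); circles are edgeR values with SE, filled at an adjusted p below 0.05, and ticks are the values under the alternative settings. The circles of Igha, Jchain and Igkc lie between −3.13 and −1.58, those of the 4 B cell genes between −1.0 and −0.50, and that of Ighm lies near 0 with ticks on both sides.

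Divided by exon length, so that genes can be set beside each other, Igkc had the highest mean of the 9 genes in both genotypes, at 38.1 ± 14.4 CPM per kilobase in SHMT2fl/fl and 12.7 ± 2.97 CPM per kilobase in SHMT2HKO livers. Igha came second in SHMT2fl/fl livers, at 12.2 ± 10.5 CPM per kilobase, before Ighm at 7.19 ± 1.08. In SHMT2HKO livers the order was turned, with Ighm at 7.34 ± 4.95 and Igha at 1.37 ± 0.844 CPM per kilobase. The ranges of Igha and Ighm overlapped in SHMT2fl/fl livers, so that their order there was within the spread. So did those of Ighm (4.34 to 13.1) and Igkc (10.2 to 16) in SHMT2HKO livers, where Ighm was above Igkc in the second liver. Jchain followed at 3.0 ± 1.85 and 0.823 ± 0.187 CPM per kilobase, then Cd79b at 1.58 ± 0.22 and 0.79 ± 0.407 and Cd79a at 1.11 ± 0.101 and 0.604 ± 0.296. Mzb1 lay at 0.576 ± 0.214 and 0.437 ± 0.0973 CPM per kilobase. Ms4a1 and Pax5 were the lowest, at 0.0854 ± 0.0054 and 0.0689 ± 0.0287 CPM per kilobase in SHMT2fl/fl livers, and they did not differ beyond their spread.

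The question of whether the plasma cell genes moved more than the B cell surface genes was asked within each liver, where the scaling between libraries cancels. The log2 ratio of the plasma cell counts (Igkc, Jchain and Mzb1) to the B cell surface counts (Cd79a, Cd79b and Ms4a1) was 1.89, 3.16 and 2.79 in SHMT2fl/fl livers and 2.38, 1.23 and 2.58 in SHMT2HKO livers. The genotypes overlapped, with means of 2.61 ± 0.653 and 2.06 ± 0.733 and a difference of −0.55. The call of 3 immunoglobulin and plasma cell genes and of 0 B cell genes is therefore not matched by a separation of the groups on this ratio. With 1 liver left out the difference ran from −0.91, without the first SHMT2fl/fl liver, to −0.13, without the second SHMT2HKO liver, and without the second SHMT2fl/fl liver it was −0.27. It was −0.54 with Igkc left out, a gene also expressed by B cells that display a kappa antibody, and −0.40 with Ighm and Igha added.

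Among the immunoglobulin and plasma cell genes themselves, the log2 ratio of Jchain to Igkc was −1.6, −1.09 and −1.88 in SHMT2fl/fl and −1.64, −1.74 and −1.73 in SHMT2HKO livers, with overlap. The ratio of Jchain to Igha, by contrast, separated the genotypes, with log2 values of −1.58, −2.33 and −1.87 in SHMT2fl/fl and of −0.196, −0.555 and −1.29 in SHMT2HKO livers. Here each SHMT2HKO liver lay above each SHMT2fl/fl liver. The log2 ratio of Igha to Ighm, the genes whose secreted tails are printed above, was −0.268, 2.52 and 0.49 in SHMT2fl/fl and −1.91, −3.37 and −0.388 in SHMT2HKO livers. All 3 SHMT2HKO values lay below the SHMT2fl/fl values, though the third lay near the lowest of them. The means of 0.91 ± 1.44 and −1.89 ± 1.49 differed by −2.8 (two-sided exact permutation test, p = 0.1, the smallest that 3 against 3 livers allow). This test was not among those planned. It uses the same Igha and Ighm counts as the IgA share below, so the 2 results are not separate support.

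The heavy chain classes were then compared as shares of all heavy chain constant counts, which numbered 1480, 2185 and 1848 in SHMT2fl/fl and 348, 615 and 512 in SHMT2HKO livers. IgA made up 33.0%, 78.3% and 43.8% of them in SHMT2fl/fl livers and 15.8%, 7.64% and 31.1% in SHMT2HKO livers. The groups did not overlap, and the means of 51.7% ± 23.7 and 18.2% ± 11.9 differed by −33.5 percentage points (two-sided exact permutation test, p = 0.1, the smallest possible). Divided by exon length the difference was −30.5 points, and without the second SHMT2fl/fl liver it was −20.2 points. IgM made up 39.8%, 13.7% and 31.2% against 59.2%, 79.0% and 40.6%, with each SHMT2HKO liver above each SHMT2fl/fl liver. The shares of IgA and IgM are parts of 1 total that also holds IgG, IgD and IgE, so that they are not independent. The IgG genes together took 23.2%, 6.22% and 23.1% against 16.7%, 9.11% and 24.4%, with overlap, and IgD with IgE took at most 8.33% in any liver.

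**Figure D3:**
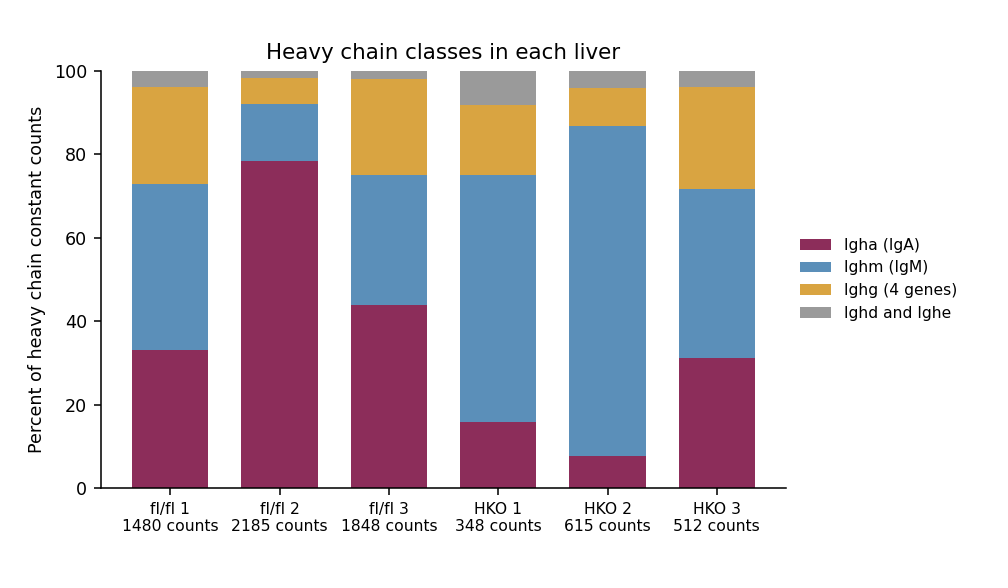
Share of the heavy chain constant counts (y axis, percent) taken by IgM, IgD and IgE, IgG and IgA in each of the 6 livers (x axis), as stacked bars that add to 100 percent. IgA takes 33.0% to 78.3% in SHMT2fl/fl and 7.64% to 31.1% in SHMT2HKO livers, and IgM takes the largest share in all 3 SHMT2HKO livers.

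Of the other immunoglobulin constant genes, 1 of 7 tested was called lower, beside 16.5% of all genes tested, and 0 were called higher. The number lower was 2 on plain library sizes and by DESeq2 and 4 on ERCC scaling. The gene called in the main fit was Ighg2b, with 159, 58 and 176 counts against 21, 13 and 45 counts. Its log2 fold change was −1.67 (SE 0.433, adjusted p = 0.0229). Its call was lost without the first SHMT2fl/fl liver (adjusted p = 0.0768), the third (0.0942) or the second SHMT2HKO liver (0.072). Ighg2c, of like abundance, gave 157, 27 and 218 counts against 19, 16 and 51 counts (log2 fold change −1.53, adjusted p = 0.103). The second SHMT2fl/fl liver, highest for Igha, was the lowest of its group for both IgG genes. Kappa held 88.8%, 89.2% and 91.6% of the light chain constant counts in SHMT2fl/fl and 80.2%, 90.7% and 91.9% in SHMT2HKO livers, with overlap (two-sided exact permutation test, p = 0.9).

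The variable genes, which give each antibody its binding site, are listed singly in the table, with 348 rows of which 177 had counts in at least 1 liver. Summed over all of them, the level was 17.6, 44.6 and 23.9 CPM in SHMT2fl/fl and 6.79, 7.34 and 10.1 CPM in SHMT2HKO livers. The groups did not overlap, and the mean was 3.55-fold lower in SHMT2HKO, between the folds of Igkc and Jchain. Heavy chain variable genes summed to 4.77, 16.3 and 6.63 against 1.57, 1.98 and 3.78 CPM, a mean 3.78-fold lower. Kappa variable genes summed to 11.7, 24.6 and 16.1 against 4.54, 4.91 and 6.06 CPM, 3.37-fold lower. Lambda variable genes summed to 1.15, 3.76 and 1.15 against 0.679, 0.456 and 0.276 CPM, 4.3-fold lower. In all 3 families the second SHMT2fl/fl liver was the highest, and without it, an alternative chosen after seeing the data, the folds were 2.33, 2.68 and 2.44, and 2.56 over all variable genes. Only 8 variable genes passed the low count filter, and 2 were called lower, Ighv7-1 and Iglv1 (−2.28, adjusted p = 0.0422), with 0 called higher. Both passed the filter through the SHMT2fl/fl livers, where they are high, so these counts are no support for a direction. On ERCC scaling 6 of the 8 were called lower, by DESeq2 4, and with 1 liver left out 0 to 3 of the 8 were called; Iglv1 lost its call without any of 5 of the 6 livers, the first SHMT2HKO liver being the exception, and was at −1.41 (adjusted p = 0.154) without the second SHMT2fl/fl liver.

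Ighv7-1 was the most counted heavy chain variable gene in each SHMT2fl/fl liver, with 30, 181 and 37 counts, and it had 1, 1 and 5 counts in SHMT2HKO livers. The second SHMT2fl/fl liver thus carried it at several times the count of the others. There it took 41.9% of the heavy chain variable counts (95% exact Clopper-Pearson interval 37.2% to 46.7%, which covers counting error only), against 15.4% and 14.6% in the other SHMT2fl/fl livers and 2.56% to 5.21% in SHMT2HKO livers. Its log2 fold change was −4.74 (SE 1.142, adjusted p = 0.0189), and it was −3.03 (adjusted p = 0.0275) without the second SHMT2fl/fl liver. Its call was lost without the first SHMT2HKO liver (adjusted p = 0.0793) and without the second (adjusted p = 0.068). Its closest relative in the annotation, Ighv7-3, is 89.0% identical to it over 363 bases, with 40 differences.

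The share of the most counted heavy chain variable gene, whichever it was, came to 15.4%, 41.9% and 14.6% in SHMT2fl/fl and 13.5%, 10.3% and 8.33% in SHMT2HKO livers. The groups did not overlap (two-sided exact permutation test, p = 0.1, the smallest possible), and the difference of −13.2 percentage points shrank to −4.27 without the second SHMT2fl/fl liver. For kappa variable genes the top share was 8.39%, 18.8% and 8.77% against 11.2%, 11.3% and 11.7%, with overlap. In the second SHMT2fl/fl liver the leading kappa genes, chosen here after their values were seen, were Igkv7-33 with 18.8% (15.9% to 22%), Igkv8-28 with 15% and Igkv2-112 with 14.2% of the kappa variable counts. That liver was the highest of the 6 for Igha, Jchain, Igkc and summed variable genes. Igkv8-28 is 97.7% identical to Igkv8-19 over 305 bases, so these genes can share reads and the share of Igkv8-28 is uncertain. The closest relatives of Igkv7-33 and Igkv2-112 are 80.3% and 83.7% identical to them. The number of heavy chain variable genes with a count was 60, 51 and 56 against 18, 26 and 38, at total counts of 195, 432 and 254 against 37, 39 and 96, so that depth moves with this number.

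**Figure D4:**
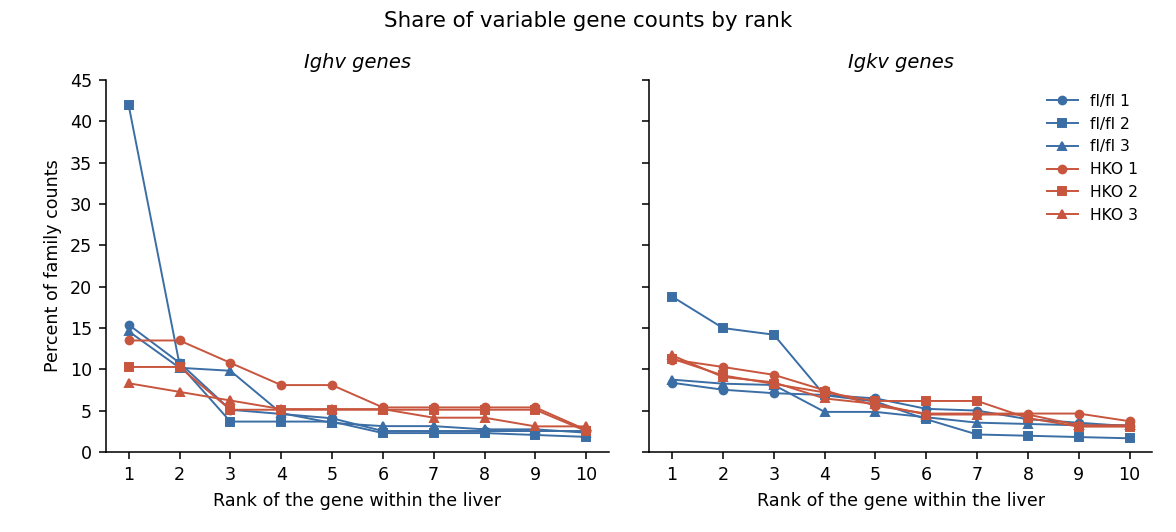
Share of the heavy chain (Ighv) and of the kappa (Igkv) variable counts (y axis, percent) taken by the genes ranked from the most counted down (x axis, rank), 1 line per liver. The line of the second SHMT2fl/fl liver starts at 41.9% for Ighv and 18.8% for Igkv and stands above the other 5 at the first rank.

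The other genes of the B lineage came from lists chosen for their known roles. Of 22 other B cell genes, 21 were tested, 10 were called lower and 0 higher, with a median log2 fold change of −1.0 beside 0.03 over all genes tested. Fcrla and Fcrl1, Fc receptor-like proteins of B cells, had log2 fold changes of −2.16 (adjusted p = 0.00663) and −1.55 (adjusted p = 0.00946). Cr2, the complement receptor CD21 of mature B cells, was at −1.82 (adjusted p = 0.0182), and Blnk, the adaptor below the B cell receptor, was at −1.64 (adjusted p = 0.00629). Fcrla and Cr2, with 3 to 5 counts in each SHMT2HKO liver, passed the low count filter through the SHMT2fl/fl livers, where they are high. Their calls are therefore no support for a direction. Cd72, an inhibitory partner of the receptor, was the most abundant of this list and went from 27.9 to 9.73 CPM (−1.52, adjusted p = 0.00473). Blnk, Cd72, Cd37 and Cd180 are also made by macrophages or dendritic cells. With 1 liver left out, 5 to 12 of the list were called lower, fewest without the third SHMT2fl/fl liver, where Fcrl1 lost its call (adjusted p = 0.0556), and Cr2 lost its call without any 1 of the 3 SHMT2fl/fl livers (adjusted p = 0.0519 to 0.0745). Among the 11 that were not called was Ighd, the constant gene of the IgD that naive B cells carry, at −0.17 (adjusted p = 0.739), named after its values were seen.

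Of 14 other plasma cell genes, 13 were tested, with 3 called lower and 2 higher. Over all genes tested, 16.5% were called lower and 12.5% higher. The median log2 fold change of the list was −0.21, and on plain library sizes 6 were called lower and 2 higher. The gene not tested was Tnfrsf17, with 1 count in the third SHMT2fl/fl liver and 0 in the other livers. Lower were Slamf7, a surface protein of plasma cells and of other leukocytes (−1.92, adjusted p = 0.00938), Tnfrsf13b, the receptor TACI for the survival factors BAFF and APRIL (−1.78, adjusted p = 0.0041), and Prdm1, the transcription factor Blimp-1 that drives plasma cell formation (−1.36, adjusted p = 0.0293). Higher were Derl3 and Creld2, both of the endoplasmic reticulum (2.57, adjusted p = 0.0195, and 0.94, adjusted p = 0.00812), and on ERCC scaling neither passed (1.54, adjusted p = 0.0562, and 0.11, adjusted p = 0.875). Creld2 had means of 31.1 CPM in SHMT2fl/fl and 59.7 CPM in SHMT2HKO livers, above those of Jchain. Which cells of the liver made Derl3 and Creld2 was not tested. Derl3 was at 1.44 (adjusted p = 0.00438) without the first SHMT2HKO liver, which held 415 counts against 76 and 98, and it lost its call without any 1 of the SHMT2fl/fl livers (adjusted p = 0.064 to 0.0854). Prdm1 lost its call without the first SHMT2fl/fl liver (adjusted p = 0.114), the third (0.0918) or the second SHMT2HKO liver (0.0926). Sdc1 and Xbp1, the most abundant of the list, are also made by hepatocytes and gave −0.04 (adjusted p = 0.892) and 0.56 (adjusted p = 0.147).

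Of 6 genes of early B cells 1 was tested. This was Dntt, which adds bases when receptor genes are joined, with 167, 124 and 169 counts against 248, 366 and 196 counts (log2 fold change 1.48, adjusted p = 0.00994), and on ERCC scaling 0.63 (adjusted p = 0.442). The other 5 genes of that list were too low to be tested. Of 3 germinal centre genes 1 was tested, Gcsam, and it was lower (−1.83, adjusted p = 0.0222), a call lost without the second SHMT2fl/fl liver (adjusted p = 0.0882), the third (0.0703) or the second SHMT2HKO liver (0.0515). The list summed to 38, 52 and 51 counts in SHMT2fl/fl and 5, 9 and 14 counts in SHMT2HKO livers. Gcsam thus passed the filter through the SHMT2fl/fl livers, and its call is no support for a direction.

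Factors that feed the B lineage were also compared, with 13 genes listed and 7 tested, of which 4 were lower and 1 higher. Ltb, the lymphotoxin chain that organises lymphoid tissue, went from 15.7 to 2.0 CPM (−2.96, adjusted p = 0.000849). The survival factors Tnfsf13b (BAFF) and Tnfsf13 (APRIL) were lower, at −1.87 (adjusted p = 0.00217) and −0.97 (adjusted p = 0.022), as was Tgfb1, which takes part in switching to IgA (−0.87, adjusted p = 0.0234). Tnfsf13 and Tgfb1 lost their calls without any 1 of the SHMT2fl/fl livers (adjusted p = 0.0593 to 0.086), and Tgfb1 also without the second SHMT2HKO liver (0.0508). Pigr, the IgA transporter, was higher, with 15800, 11189 and 16356 counts against 37748, 19023 and 19400 counts (1.43, adjusted p = 0.00675), and on ERCC scaling it was at 0.56 (adjusted p = 0.36). Igha and its transporter thus moved in opposite directions on TMM scaling.

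Markers of other cells moved with genotype beside the B cell and plasma cell genes. Of 14 T cell markers 13 were called lower and 0 higher, their summed level was 32.3 to 41.9 CPM in SHMT2fl/fl and 8.31 to 11.1 CPM in SHMT2HKO livers, and none of Cd3d, Cd3e and Cd3g was at 0 in any liver. Natural killer cell markers were called lower in 4 of 8 (summed 11.3 to 14.3 against 3.78 to 5.9 CPM, with Ncr1 at 0 in 1 SHMT2HKO liver), plasmacytoid dendritic cell markers in 3 of 5 tested (82.1 to 84.1 against 40.9 to 53.6 CPM) and neutrophil markers in 1 of 3 tested (7.49 to 11.6 against 4.05 to 7.28 CPM). Of 10 macrophage markers 6 were lower and 3 higher, Clec4f and Timd4 among the latter (752 to 980 against 494 to 551 CPM). Genes of all leukocytes were lower in 5 of 6 (316 to 364 against 182 to 253 CPM), and Ptprc, the surface phosphatase CD45, went from 31.1 to 13.6 CPM (−1.19, adjusted p = 0.0133). All 5 cholangiocyte markers were lower (951 to 1180 against 128 to 245 CPM), and of 6 hepatocyte markers 0 were lower and 2 higher. The hepatocyte calls depended on the setting, with 1 lower and 0 higher on plain library sizes and on ERCC scaling, 1 lower and 1 higher with upper-quartile factors, 1 lower and 4 higher by DESeq2, and 0 to 4 higher with 1 liver left out. With 1 liver left out, 8 to 13 T cell markers, 2 to 5 natural killer cell markers, 1 to 3 plasmacytoid dendritic cell markers, 0 to 1 neutrophil markers and 3 to 5 genes of all leukocytes were called lower. The lowest numbers were reached without the first SHMT2fl/fl liver but were not particular to it. Cd2, Cd5, Cd28 and Trbc1 lost their calls without the first and without the third SHMT2fl/fl liver. Klrb1c, Gzmb, Siglech, Tcf4 and Csf3r lost theirs without any 1 SHMT2fl/fl liver and without the second SHMT2HKO liver. Ptprc missed the threshold without the first SHMT2fl/fl liver (adjusted p = 0.0524) and without the second SHMT2HKO liver (adjusted p = 0.0524). The part of these cells in the B cell and plasma cell values was not tested.

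**Figure D5:**
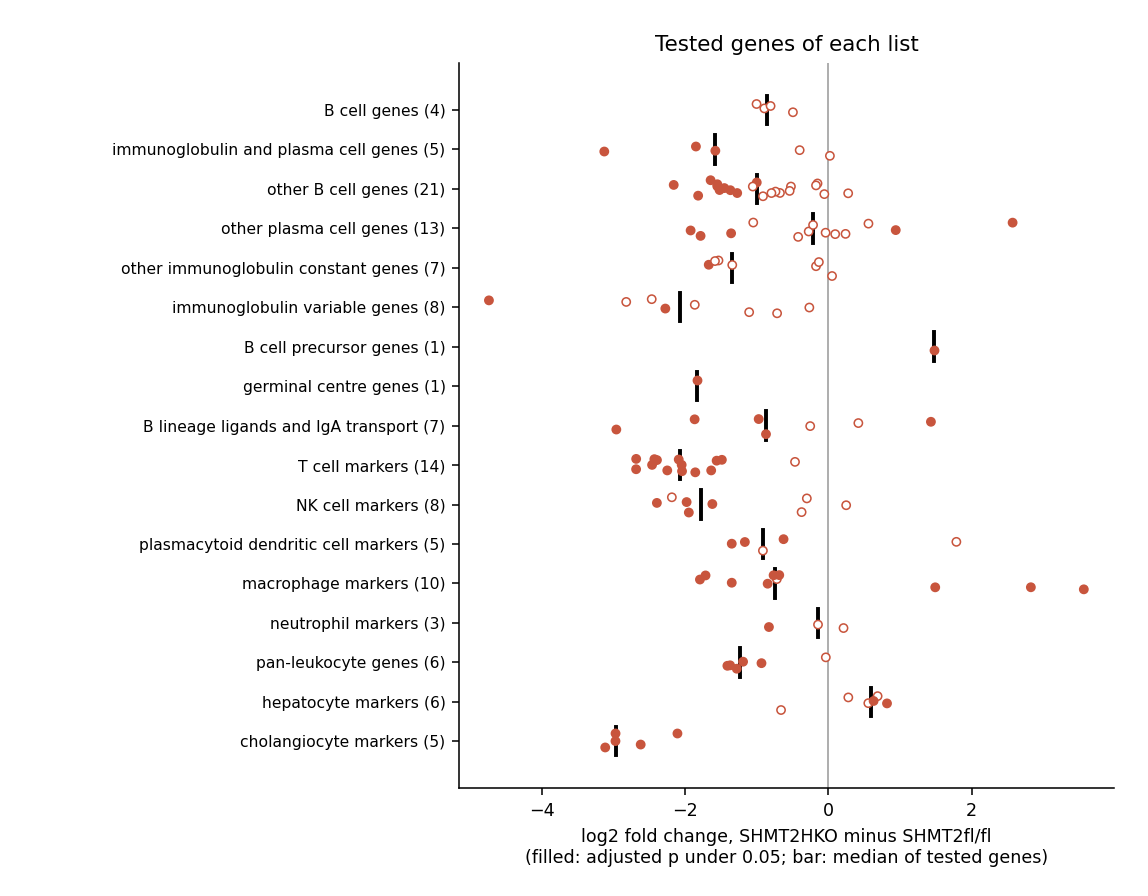
Log2 fold change, SHMT2HKO minus SHMT2fl/fl (x axis), of each tested gene in each list (y axis, number tested in brackets); filled points passed at an adjusted p below 0.05 and bars are medians. The 4 B cell genes have open points left of 0, 3 of the 5 immunoglobulin and plasma cell genes are filled, and the T cell and cholangiocyte medians lie further left, at −2.07 and −2.97.

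Within each liver the B cell genes were set against other leukocyte genes. The log2 ratio of Cd79a, Cd79b and Ms4a1 to Cd3d, Cd3e and Cd3g, computed after the values were seen, was −0.918, −0.857 and −1.0 in SHMT2fl/fl and 0.567, 1.32 and 0.0 in SHMT2HKO livers. Every SHMT2HKO liver was above every SHMT2fl/fl liver, so that the T cell receptor genes differed by more than the B cell genes in these livers, with no test made. Against Ptprc the same B cell genes gave −3.07, −2.36 and −2.95 in SHMT2fl/fl and −2.64, −1.78 and −3.3 in SHMT2HKO livers, with overlap. Igha against Ptprc gave −1.7, 1.45 and −0.548 against −2.18, −2.25 and −1.6, with means of −0.27 ± 1.59 and −2.01 ± 0.354 and a difference of −1.74. These overlapped through 1 pair of livers, the first SHMT2fl/fl liver at −1.7 and the third SHMT2HKO liver at −1.6, and no test was made.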

How the data were processed

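The deposited table holds raw read counts per gene for the 6 livers, made by the authors with Trimmomatic 0.36 and STAR 2.5.2b against GRCm38 with ERCC spike-ins, keeping unique hits to Ensembl genes; the submitters' processing notes name featureCounts from Subread 1.5.2, and the strand setting is not given in the sources used here. The 92 ERCC rows (1.35 to 2.75% of counts) were kept out of library sizes and tests. Counts were tested with edgeR 4.0.16 (R 4.3.3): filterByExpr, TMM, glmQLFit with robust dispersion and glmQLFTest, KO against WT, with Benjamini-Hochberg adjustment over all 16089 genes. SE is the absolute log2 fold change divided by the square root of F. DESeq2 1.42.0, limma-voom (limma 3.58.1, the study's own method), other scalings and filters, a replicate block and leaving out each liver were the alternatives. The code was tested on simulated data. The IgA share, the kappa share, the top variable gene shares and the ratio of Igha to Ighm were compared with exact permutation tests (scipy 1.17.1). The other shares and ratios within a liver were not tested.

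Genes were named with GENCODE M21, whose symbols cover all but 345 of the 49671 identifiers. The text names the 9 genes and Shmt2 and, of each other list, at most the 4 called genes of largest fold change and the 2 of highest mean CPM, beside those said to be chosen after their values; some genes that this rule names are not reported here. The 9 genes and the lists were chosen with earlier results of these data known. P-values measure the spread between these livers. All replicate pairs differed by more than counting noise.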

Additional observations from a re-analysis of the deposited data

How the results depend on the processing

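The number of the 9 genes called lower was 3, and 5 without TMM and on ERCC scaling, where Cd79a and Cd79b were added. It was 4 at the study's looser cutoff applied to edgeR (with Cd79b), 2 without the low count filter, and 2 to 4 with 1 liver left out. Of all 16089 genes tested, 4923 were called lower without TMM and 2759 on ERCC scaling, against 2651 in the main fit. Without the low count filter 2571 of 29420 genes were called lower, and with 1 liver left out 1621 to 3076 genes. Of all calls 56.9% were lower, against 67.5% with upper-quartile factors, 90.1% without TMM and 96.3% with ERCC scaling, and the median log2 fold change of all genes was 0.03, −0.06, −0.40 and −0.69. ERCC scaling called 2866 genes against 4663. Leaving out 1 liver gave 2426 to 5597 calls in all. Requiring at least 10 counts in every liver removed Ms4a1 and Pax5.

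Ighm, at 0.02, changed sign with limma-voom (−0.22), without TMM (−0.44), with upper-quartile factors (−0.071), with ERCC scaling (−0.86), without the low count filter (−0.005), with the stricter filter (−0.024) and with the replicate block (−0.17); with 1 liver left out it was −0.68 to 0.27. The kappa share difference was −2.25 percentage points and 1.44 without SHMT2HKO liver 1, within −4.41 to 1.44. The top kappa variable gene share differed by −0.57 points and by 2.84 without SHMT2fl/fl liver 2, within −2.37 to 2.84. The cause of these changes was not tested.

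The replicate block gave 3584 calls in place of 4663 and kept the calls of Igha (−2.88, adjusted p = 0.0191), Igkc (−1.52, adjusted p = 0.0148) and Jchain (−1.68, adjusted p = 0.0367). Same-numbered livers did not deviate together (correlations −0.0486, 0.0033 and −0.0658, and 0 livers correlated best with their own number). With 3 livers per group this check cannot exclude a shared litter or cage. Counts of 3 to 38 for Ms4a1, Pax5 and Mzb1 limit what could be detected.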

Other observations

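Among 12257 genes with a mean of at least 1 log2 CPM, those whose log2 CPM followed Cd79b most closely over the 6 livers included Gatd1 (Pearson r = 0.9892), Pkmyt1 (0.987), Pold1 (0.9839) and Knstrn (0.9805). Those nearest to Jchain were Ywhaq (0.9902), Cfap43 (0.9899), Trp53i13 (0.9894), Rnf40 (0.9877) and Sox12 (0.9874). None of these 9 genes stands in the B cell or plasma cell lists. These values are a description of 6 points that share genotype and library scaling.

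Cxcl13, the chemokine that draws B cells into follicles, had 2, 1 and 2 counts in SHMT2fl/fl and 13, 17 and 8 counts in SHMT2HKO livers and was too low to be tested. It was named after its values were seen.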
